A study of Mus musculus with 4 samples.

Results

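The genes described here encode costimulatory proteins of T cells, Cd28, Icos, Cd40lg, Cd27, Tnfrsf1b, Tnfrsf18, Tnfrsf9 and Tnfrsf4. They were taken by gene symbol, and the 8 have a row in the deposited table of 17039 genes. The samples were T cells taken by magnetic sorting (MACS) from the spleens of C57BL/6 mice about a month after an intramuscular dose of recombinant adeno-associated virus (AAV). The AAV-IL-27 group carried a virus that expresses interleukin-27 (IL-27), and the AAV-ctrl group carried a control virus. The 4 mice gave 2 libraries per group, replicates 1 and 3, called library 1 and library 3 below. The series title calls the cells CD8+ and the cell type field calls them splenic T cells. The promoter in the virus, the age of the mice and whether sorting was by positive or negative selection are not given in the sources used here.

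A T cell needs a second signal beside its antigen receptor, and these genes encode surface proteins that give or pass on such signals. CD28 and ICOS belong to the immunoglobulin superfamily. CD28 binds CD80 and CD86 on antigen-presenting cells and is present on resting T cells, and ICOS binds ICOS ligand and appears after activation. CD27, OX40 (Tnfrsf4), 4-1BB (Tnfrsf9), GITR (Tnfrsf18) and TNF receptor 2 (Tnfrsf1b) belong to the tumour necrosis factor (TNF) receptor superfamily, whose cytoplasmic tails recruit TRAF adaptors and lead to NF-kappa-B. CD40 ligand (Cd40lg) is a TNF family ligand, best known on activated CD4 T cells, and binds CD40 on B cells and dendritic cells.

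Of the 8 genes, Icos, Tnfrsf1b, Cd28 and Cd27 were higher in AAV-IL-27, Cd40lg was lower on few counts, a call lost with any 1 library left out, and Tnfrsf4, Tnfrsf9 and Tnfrsf18 did not pass the test. Icos doubled, with a fold of 2.01, Tnfrsf1b rose 1.49-fold, Cd28 1.34-fold and Cd27 1.33-fold. These numbers stand beside a broad change of the transcriptome: of the 12887 genes tested, 21.3% rose and 17.7% fell, 39.0% in all (5023 genes), at an adjusted p of 0.05 in the quasi-likelihood test of edgeR with Benjamini-Hochberg adjustment. The median log2 fold change was 0.36 over the 8 genes, 0.20 over 16 T cell identity genes and -0.01 over all genes tested. When the libraries were scaled to those T cell identity genes, Cd27 and Cd28 did not pass. In all 8 genes the groups did not overlap in normalised counts: 6 lay higher in AAV-IL-27 and 2 lower. Over all tested genes the groups did not overlap in 71.5%, with 35.7% higher and 35.8% lower.

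Total counts were 15742476 to 16182426 per library. The library labels were checked against marker genes, whose level is given in FPKM (fragments per kilobase of transcript, scaled to library size, a unit read from the values since the header names none). Cd3e stood at 172 to 209 FPKM and Cd8a at 321 to 408, against 8.21 to 10.1 for Cd4 and 546 to 626 for Cd8b1, so T cell and CD8 markers were present in every library. B cell genes were present as well (8 genes summed to 812 and 1128 FPKM in AAV-IL-27, and to 1832 and 1603 in AAV-ctrl), and 3 of the 8 fell, or all 8 with AAV-IL-27 library 1 or library 3 left out. Of 10 neutrophil genes 9 rose (961 and 1576 FPKM against 30.4 and 21.1; 3 rose with either control library left out), all 6 basophil and mast cell genes rose (94.2 and 98.2 against 8.62 and 7.99), and 7 of 8 natural killer cell genes fell. The 8 summed to 55.9 and 53.4 against 111.6 and 110.6 FPKM, of which Eomes, a transcription factor that CD8 T cells also express and the 1 gene of the list that rose (0.32 on the log2 scale, edgeR adjusted p = 0.00117), was 42.9 and 41.1 against 33.5 and 35.4. With scaling to the T cell identity genes Eomes lost its call (0.18, adjusted p = 0.234). Of 12 macrophage and dendritic cell genes, which summed to 214 and 174 against 229 and 204 FPKM, 6 fell, Vcam1, Mertk and C1qc the furthest, and 1 rose. How many rose changed with the library left out. Without passing, Xcr1, Itgax and Flt3 lay higher (log2 fold changes of 0.90, 0.53 and 0.51), and Csf1r and Siglech had -0.75 and -0.09. With scaling to the T cell identity genes Xcr1, Itgax and Flt3 passed as higher and Csf1r as lower. Of 7 plasma cell genes 3 rose (304 and 628 against 195 and 238 FPKM; 6 rose with AAV-IL-27 library 1 left out), and all 14 cell cycle genes rose. The 16 T cell identity genes summed to 4088 and 3620 FPKM in AAV-IL-27 and to 3558 and 3597 in AAV-ctrl. Of these, 9 rose and 1 fell, while 3 rose with control library 1 left out and 4 with control library 3 left out, none fell with either left out, and 2 fell with AAV-IL-27 library 1 left out. In bulk RNA, more cells of a type and more RNA per cell cannot be told apart. The part of these other cells in the results below was not tested.

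CD28 itself was read at 38.8 and 37.8 FPKM in AAV-IL-27 replicates 1 and 3 and at 29.8 and 29.2 FPKM in AAV-ctrl replicates 1 and 3. Both AAV-IL-27 libraries lay above both control libraries, and the libraries of a group lay close together. Its level rose by 0.43 ± 0.048 (SE) on the log2 scale (edgeR adjusted p = 0.000145), from 29.5 ± 0.41 to 38.3 ± 0.728 FPKM (SD, n = 2). Cd28 (NCBI Gene 12487) lies on chromosome 1 from 60746388 to 60773359 on the plus strand of GRCm38, and its longest coding transcript in GENCODE has 4 exons.

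ICOS showed the largest rise among the 8. Icos (NCBI Gene 54167, chromosome 1, 60960773 to 61000322, plus strand) stood at 19.5 and 19.6 FPKM in AAV-IL-27 and at 9.92 and 10.1 FPKM in AAV-ctrl. The counts were 1031 and 1041 against 516 and 525. The gap between the groups was many times the gap between libraries of a group. The log2 fold change was 1.01 ± 0.064 (SE) (95% interval 0.87 to 1.15, edgeR adjusted p = 3.61e-06). Icos and Tnfrsf1b were the members that passed under all 14 alternative settings, with log2 fold changes of 0.87 to 1.02 for Icos and 0.43 to 0.64 for Tnfrsf1b.

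**Figure D1:**
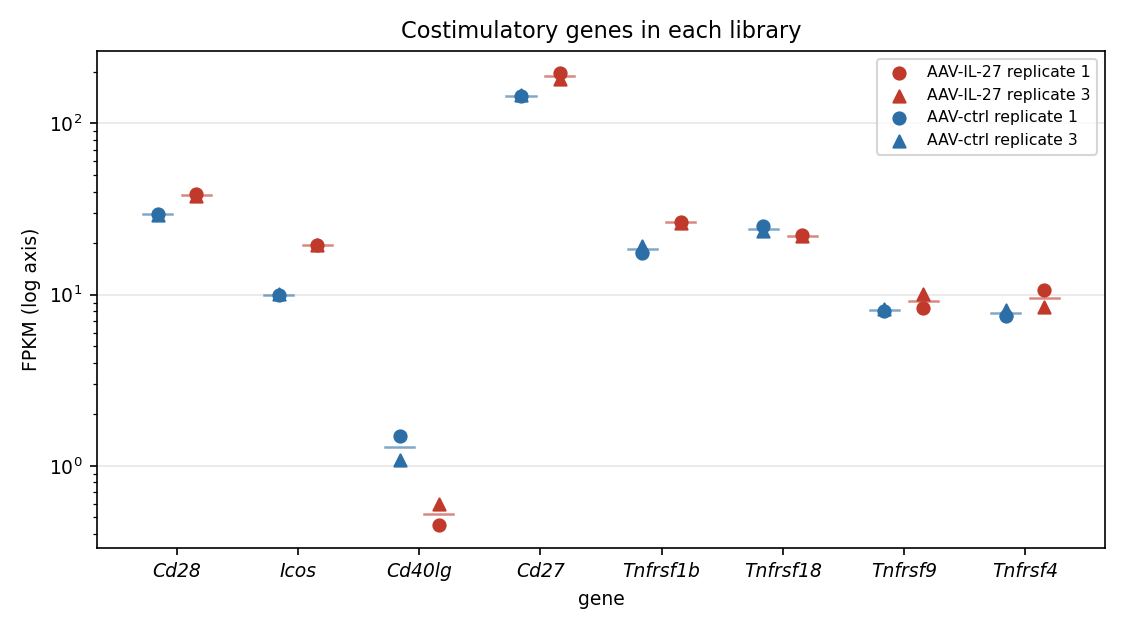
FPKM of the 8 costimulatory genes in each library, on a log axis, with blue for AAV-ctrl, red for AAV-IL-27, circles for replicate 1, triangles for replicate 3 and bars for the mean of 2 libraries. Icos moves from 9.92 and 10.1 FPKM to 19.5 and 19.6, Cd40lg lies lowest in all libraries, and the red points of Tnfrsf4 and Tnfrsf9 spread wider than the blue ones.

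Icos and Cd28 share a locus with Ctla4, the inhibitory receptor that competes with CD28 for CD80 and CD86. In RefSeq, Ctla4 starts 135666 bases after the end of Cd28, and Icos starts 44941 bases after the end of Ctla4. GENCODE places the starts of Ctla4 and Icos at 60887000 and 60977927, so both distances differ there. Ctla4 was at 53.0 and 40.5 FPKM in AAV-IL-27 and at 7.18 and 7.11 FPKM in AAV-ctrl, a log2 fold change of 2.75 ± 0.16 (SE) (edgeR adjusted p = 8.78e-05). The 3 genes of the locus thus all rose, by different amounts. Of the other inhibitory family members, Pdcd1 (PD-1) rose by 3.62 ± 0.24 and Btla fell by 0.36 ± 0.0525 on the log2 scale.

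Ratios between genes within a library do not depend on library scaling, and 10 were chosen after the values were seen. Ctla4 was 1.37 and 1.07 times Cd28 in AAV-IL-27 and 0.241 and 0.243 times Cd28 in AAV-ctrl, in FPKM. In the control libraries Cd28 was therefore the more abundant transcript per length, and in the AAV-IL-27 libraries Ctla4 was. The Icos to Cd28 ratio was 0.502 and 0.519 against 0.333 and 0.346, a fold of 1.505. Icos per Cd3e, a subunit of the T cell receptor complex, was 0.0933 and 0.102 against 0.0577 and 0.0576, a fold of 1.69. Cd28 per Cd3e was 0.186 and 0.196 against 0.173 and 0.167, a fold of 1.12. With 2 libraries against 2, an exact two-sided permutation test cannot go below p = 0.333, and all 10 ratios gave that p, also after Benjamini-Hochberg adjustment.

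**Figure D2:**
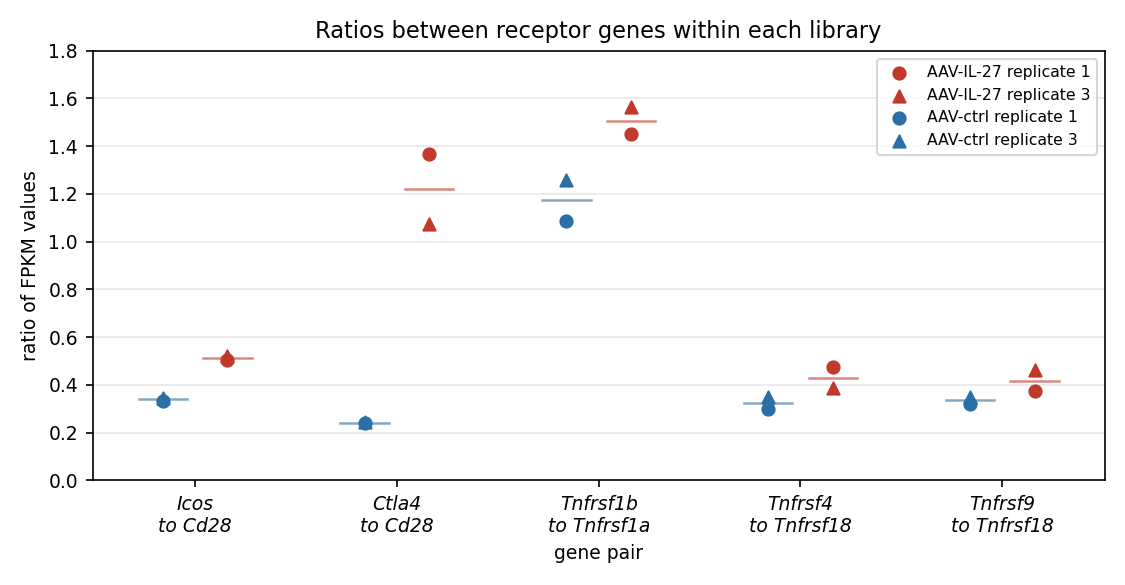
Ratios of FPKM values between gene pairs within each library, with bars for group means. Ctla4 to Cd28 goes from about 0.242 in AAV-ctrl (blue) to 1.22 in AAV-IL-27 (red), and the other pairs shift by smaller amounts.

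Among the TNF receptors, Tnfrsf1b and Cd27 rose. TNF receptor 2 is known on activated and regulatory T cells and on myeloid cells. Tnfrsf1b (NCBI Gene 21938, chromosome 4, 145212368 to 145246870, minus strand) stood at 26.6 and 26.4 FPKM in AAV-IL-27 and at 17.6 and 19.2 FPKM in AAV-ctrl. The control libraries differed more than the AAV-IL-27 libraries, and the groups did not overlap. Its log2 fold change was 0.57 ± 0.057 (SE) (edgeR adjusted p = 6.71e-05). Tnfrsf1a, the TNF receptor with a death domain, was at 18.3 and 16.9 FPKM against 16.17 and 15.3 and did not pass (0.21 ± 0.076, adjusted p = 0.0513). Tnfrsf1a lies at the threshold and passed in 5 of the 14 alternatives, among them that with AAV-IL-27 library 3 left out (0.27, adjusted p = 0.0346). The Tnfrsf1b to Tnfrsf1a ratio was 1.45 and 1.56 in AAV-IL-27 and 1.09 and 1.26 in AAV-ctrl. Tnfrsf1b per Cd3e was 0.127 and 0.137 in AAV-IL-27 and 0.102 and 0.110 in AAV-ctrl, a fold of 1.246.

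CD27, a receptor of naive and memory T cells that binds CD70, was the most abundant of the 8 in every library. Cd27 (NCBI Gene 21940, chromosome 6, 125232620 to 125237136, minus strand) stood at 196 and 181 FPKM in AAV-IL-27 and at 144 and 147 FPKM in AAV-ctrl. The groups did not overlap, and AAV-IL-27 replicate 1 was the higher of its group, as it was for Cd3e. The log2 fold change was 0.41 ± 0.054 (SE) (edgeR adjusted p = 0.000375). Per Cd3e, Cd27 was 0.94 in both AAV-IL-27 libraries and 0.837 in both control libraries, a fold of 1.12. Scaled to the T cell identity genes, neither Cd27 (0.27, adjusted p = 0.063) nor Cd28 (0.28, adjusted p = 0.0503) passed. Under that scaling the median over all genes shifted by -0.14 (log2).

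GITR, 4-1BB and OX40 are known as receptors of activated T cells and, for GITR and OX40, of regulatory T cells. Tnfrsf18 (NCBI Gene 21936, chromosome 4, 156026322 to 156028894, plus strand) stood at 22.3 and 21.9 FPKM in AAV-IL-27 and at 25.1 and 23.5 FPKM in AAV-ctrl. The difference was small (log2 fold change -0.08, 95% interval -0.27 to 0.10, edgeR adjusted p = 0.462) and stayed below 0 in all 14 alternatives without passing in any.

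Tnfrsf9 (NCBI Gene 21942, chromosome 4, 150920155 to 150946104, plus strand) stood at 8.33 and 10.1 FPKM in AAV-IL-27 and at 8.05 and 8.23 FPKM in AAV-ctrl. AAV-IL-27 replicate 3 stood apart from the other 3 libraries. The log2 fold change was 0.23 (95% interval -0.02 to 0.48, edgeR adjusted p = 0.131). With AAV-IL-27 library 1 left out it was 0.37 and passed (adjusted p = 0.0236), and with AAV-IL-27 library 3 left out it was 0.09 (adjusted p = 0.556).

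Tnfrsf4 (NCBI Gene 22163, chromosome 4, 156013595 to 156016613, plus strand) stood at 10.6 and 8.44 FPKM in AAV-IL-27 and at 7.48 and 8.17 FPKM in AAV-ctrl. Here AAV-IL-27 replicate 1 was the high library, the reverse of Tnfrsf9. The log2 fold change was 0.30 (95% interval -0.05 to 0.66, edgeR adjusted p = 0.153). With AAV-IL-27 library 3 left out it was 0.47 and passed (adjusted p = 0.0359), and with AAV-IL-27 library 1 left out it was 0.12 (adjusted p = 0.592). For Tnfrsf4 and Tnfrsf9 the result therefore rests on which AAV-IL-27 library is kept. The log2 ratio of replicate 3 to replicate 1 within AAV-IL-27 was -0.35 for Tnfrsf4 and 0.27 for Tnfrsf9, and for the other 5 genes with over 100 counts it was -0.12 to 0.01. The intervals of both genes still hold rises as large as that of Cd28.

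Regulatory T cells carry several of these receptors, so their markers are given beside them. Foxp3, their defining transcription factor, was at 0.93 and 1.22 FPKM in AAV-IL-27 and at 1.84 and 1.57 FPKM in AAV-ctrl (log2 fold change -0.62 ± 0.21, edgeR adjusted p = 0.0405), and did not pass with AAV-IL-27 library 1 or either control library left out (adjusted p from 0.106 to 0.253), nor under 3 other alternatives, among them DESeq2 (adjusted p = 0.188). Il2ra, which encodes CD25, was at 4.78 and 4.59 against 4.78 and 4.75 FPKM (adjusted p = 0.843). Of 11 tested genes of CD4 and regulatory T cells, 3 rose (Ctla4, Nrp1 and Ikzf2) and 6 fell, with a summed level of 104 and 94.5 FPKM against 64.95 and 64.8, of which Ctla4 was 53.0 and 40.5 in AAV-IL-27. Of these, 3 fell with AAV-IL-27 library 1 or control library 3 left out, and 2 with control library 1 left out. Ikzf2 did not pass with control library 1 left out (adjusted p = 0.0646). Of 8 follicular helper T cell genes, a cell type in which ICOS is abundant, Il21, Tox2, Pdcd1 and Sh2d1a rose, Bcl6 fell, and Bcl6 did not pass without any single one of the 4 libraries (adjusted p from 0.0793 to 0.28). The other 3 follicular helper genes, Cxcr5, Pou2af1 and Ascl2, did not pass (log2 fold changes of -0.49, -0.32 and -0.14). Cxcr5 was at 35.65 and 51.2 FPKM in AAV-IL-27 and at 64.2 and 62.0 FPKM in AAV-ctrl (edgeR adjusted p = 0.188). Its log2 fold change was -0.25 with AAV-IL-27 library 1 left out and -0.775 with AAV-IL-27 library 3 left out. That of Pou2af1 was -0.65 with AAV-IL-27 library 3 left out. Both Cxcr5 (-0.62, edgeR adjusted p = 6.31e-06) and Pou2af1 (-0.45, adjusted p = 0.00861) passed as lower when scaled to the T cell identity genes. Over all genes tested 21.3% rose and 17.7% fell. The part of either cell type in the levels of the 8 genes was not tested.

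Tnfrsf4, Tnfrsf18, Tnfrsf9 and Tnfrsf1b all lie on chromosome 4, and Tnfrsf4 ends 9709 bases before Tnfrsf18. RefSeq promoter windows of GRCm38.p6, from 250 bases before to 50 after a start, were matched for 5 of the 8 genes. They were searched on both strands for a STAT site (TTCNNNGAA), an AP-1 site (TGANTCA) and the NF-kappa-B site, which 8.30%, 7.81% and 8.46% of all 32851 such windows hold. The STAT site was found for Tnfrsf1b 181 bases before the start, for Tnfrsf18 99 bases before it and for Tnfrsf9 136 bases before its second start. That Tnfrsf9 window also held the AP-1 site 15 bases before the start and 2 overlapping NF-kappa-B sites from 43 bases before it. None of these letters was found in the window of Cd27, of Tnfrsf4 or of the other Tnfrsf9 start. A match is a description of the letters and not of binding. The windows of a gene that rose with a match, a gene that rose without one, and 2 that did not pass are shown to set them side by side. Each is written 5′ to 3′ on the strand of the gene with the matches in capitals, at chr4:145246821-145247120 (minus strand), chr6:125236978-125237277 (minus strand), chr4:156026072-156026371 (plus strand) and chr4:150927749-150928048 (plus strand).
Tnfrsf1b: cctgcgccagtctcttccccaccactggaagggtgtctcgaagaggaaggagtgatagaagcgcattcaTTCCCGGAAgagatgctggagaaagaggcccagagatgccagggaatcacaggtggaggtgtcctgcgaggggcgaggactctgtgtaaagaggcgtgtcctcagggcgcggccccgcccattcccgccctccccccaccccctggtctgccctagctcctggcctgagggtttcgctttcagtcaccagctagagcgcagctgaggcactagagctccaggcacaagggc
Cd27: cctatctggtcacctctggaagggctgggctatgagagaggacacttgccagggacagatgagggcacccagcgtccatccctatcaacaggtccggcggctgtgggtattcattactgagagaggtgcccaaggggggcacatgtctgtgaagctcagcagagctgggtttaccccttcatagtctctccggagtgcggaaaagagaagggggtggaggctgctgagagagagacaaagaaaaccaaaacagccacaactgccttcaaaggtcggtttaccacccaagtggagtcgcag
Tnfrsf18: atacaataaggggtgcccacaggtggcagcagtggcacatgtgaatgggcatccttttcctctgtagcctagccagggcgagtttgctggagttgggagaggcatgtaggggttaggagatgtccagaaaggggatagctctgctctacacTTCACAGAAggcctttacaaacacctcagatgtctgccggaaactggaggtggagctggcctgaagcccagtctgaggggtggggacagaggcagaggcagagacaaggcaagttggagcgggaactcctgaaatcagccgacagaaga
Tnfrsf9: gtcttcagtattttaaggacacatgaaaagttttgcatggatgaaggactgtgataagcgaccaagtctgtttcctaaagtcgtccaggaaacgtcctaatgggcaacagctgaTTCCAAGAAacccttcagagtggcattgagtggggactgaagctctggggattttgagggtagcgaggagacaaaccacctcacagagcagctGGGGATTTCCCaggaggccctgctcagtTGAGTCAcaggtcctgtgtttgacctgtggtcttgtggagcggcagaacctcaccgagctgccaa

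CD40 ligand went the other way. Cd40lg (NCBI Gene 21947, chromosome X, 57212143 to 57224042, plus strand) had 9 and 12 counts in AAV-IL-27 and 29 and 21 counts in AAV-ctrl, or 0.45 and 0.60 against 1.49 and 1.08 FPKM. It was the least abundant of the 8 in every library. The exact 95% Poisson intervals cover counting error only, are per library and do not compare the groups. They overlapped for the 12 counts (6.20 to 20.96) and the 21 (13.0 to 32.1). Those of the 9 counts (4.1 to 17.1) and the 29 (19.4 to 41.65) did not. The log2 fold change was -1.23 ± 0.39 (SE) (edgeR adjusted p = 0.0332). This call was lost without any single one of the 4 libraries (adjusted p from 0.071 to 0.263) and by DESeq2 (adjusted p = 0.229), while its direction held in the 13 alternatives that tested it. Cd4 was at 8.21 and 10.1 FPKM against 9.74 and 9.81 (log2 fold change -0.03, adjusted p = 0.853), so Cd40lg per Cd4 was 0.0548 and 0.0594 against 0.153 and 0.110. Platelets also carry CD40 ligand. Platelet genes with a row number 5, of which 1 had enough counts for a test, and they summed to 2.01 and 1.76 FPKM in AAV-IL-27 and to 1.68 and 1.23 in AAV-ctrl, with Pf4 at 0 counts in 1 library of each group.

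By FPKM the order of the 8 was nearly the same in the 2 groups. Cd27 was at rank 1 and Cd28 at rank 2 in all 4 libraries, Icos was at rank 5 and Cd40lg at rank 8. Tnfrsf18 stood above Tnfrsf1b in both control libraries, and Tnfrsf1b above Tnfrsf18 in both AAV-IL-27 libraries. Tnfrsf4 and Tnfrsf9 were at rank 6 or 7 and did not differ beyond their spread. The 8 genes summed to 323 and 306 FPKM in AAV-IL-27 and to 243 and 246 FPKM in AAV-ctrl, most of it Cd27.

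**Figure D3:**
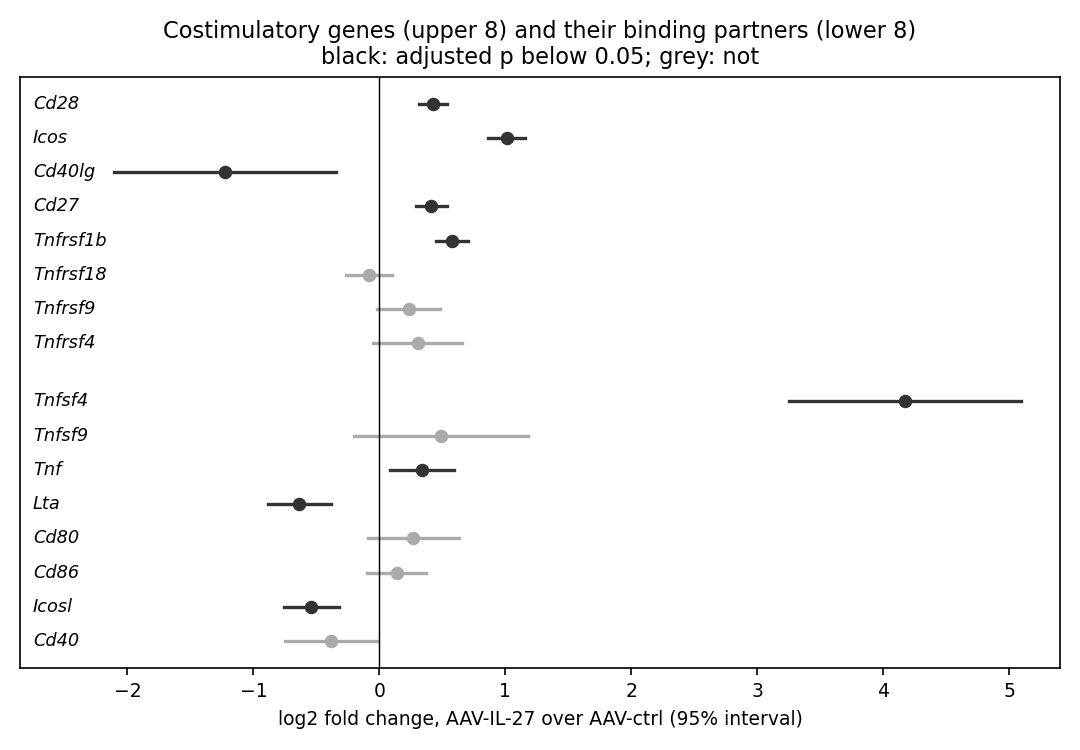
Log2 fold change of the 8 costimulatory genes (upper) and of their tested binding partners (lower), with 95% intervals of edgeR's quasi-likelihood fit, black where the adjusted p is below 0.05. Icos is the highest of the upper block at 1.01, and Tnfsf4 the highest of the lower block at 4.17.

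The binding partners of the 8 proteins are set beside all genes tested, of which 21.3% rose and 17.7% fell. Of 10 partner genes, Cd70 has no row in the table used here, Tnfsf18 (GITR ligand, 2 to 8 counts) had too few counts for a test, and of the 8 tested 2 rose and 2 fell. Tnfsf4, which encodes OX40 ligand, had 58 and 89 counts in AAV-IL-27 and 4 counts in each control library, a log2 fold change of 4.17 ± 0.41 (SE) (edgeR adjusted p = 6.25e-05). Its level remained low, at 2.25 and 3.44 FPKM. Tnf was at 9.32 FPKM in both AAV-IL-27 libraries and at 8.12 and 7.14 FPKM in AAV-ctrl (0.34 ± 0.11, adjusted p = 0.0403), and did not pass without any single one of the 4 libraries (adjusted p from 0.0743 to 0.273). Lta (lymphotoxin alpha), another ligand of TNF receptor 2, fell by 0.63 ± 0.11 on the log2 scale, from 24.6 and 20.1 to 13.3 and 14.6 FPKM (adjusted p = 0.00214). Icosl, the ICOS ligand, fell by 0.54 ± 0.09, from 58.6 and 55.3 to 34.2 and 41.5 FPKM (adjusted p = 0.00393). ICOS and its ligand transcript thus went opposite ways in these preparations. Icosl is known on B cells, and the 3 B cell genes that fell were Cd79b (-0.86), Blk (-0.57) and Fcer2a (-1.96), of which Cd79b lost its call with either control library left out (adjusted p of 0.158 and 0.12) and under 3 other alternatives, and Fcer2a lost its call under 1 alternative.

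Tnfsf9 (4-1BB ligand, 0.49, edgeR adjusted p = 0.238), Cd80 (0.27, adjusted p = 0.217) and Cd86 (0.14, adjusted p = 0.32) did not pass. Cd40, at 10.4 and 13.5 FPKM against 17.9 and 14.5, did not pass either (-0.38, adjusted p = 0.0932), but did with AAV-IL-27 library 3 left out (-0.58, adjusted p = 0.0123). The CD28 ligands were read at 3.20 and 3.31 FPKM against 2.84 and 2.38 for Cd80, and at 25.0 and 21.3 against 23.1 and 20.2 for Cd86.

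Of 18 other TNF receptor genes tested, 2 rose, 5 fell and 11 did not pass (median log2 fold change -0.13). Among all genes tested 21.3% rose and 17.7% fell. Fas, a death receptor, rose by 0.89 ± 0.0925 (edgeR adjusted p = 8.82e-05), from 11.7 and 13.6 to 23.4 and 22.2 FPKM. Tnfrsf14 (HVEM, which binds BTLA) rose by 0.25 ± 0.062 and did not pass with control library 3 left out (adjusted p = 0.125). Tnfrsf25 (DR3, a costimulatory receptor of T cells) fell by 0.78 ± 0.17, from 4.76 and 5.04 to 2.69 and 2.76 FPKM, and did not pass with control library 3 left out (adjusted p = 0.0654). Tnfrsf13b (TACI, a receptor of B cells) fell by 0.54 ± 0.0975 and did not pass with control library 1 left out (adjusted p = 0.0607). Tnfrsf10b, Tnfrsf22 and Tnfrsf19 also fell, Tnfrsf19 on few counts (0 and 1 in AAV-IL-27 against 14 and 11 in AAV-ctrl). Tnfrsf10b (adjusted p from 0.095 to 0.178) and Tnfrsf22 (0.0511 to 0.114) lost their calls when some single libraries were left out. With control library 1 or control library 3 left out, 2 of the 18 fell, and with AAV-IL-27 library 3 left out, 4 rose. Tnfrsf13c (BAFF receptor of B cells) was at 26.0 and 39.6 FPKM against 66.6 and 57.6 (-0.87, adjusted p = 0.108), and passed with AAV-IL-27 library 1 left out (-0.60, adjusted p = 0.00127) or replicate 3 (-1.21, adjusted p = 4.18e-05). Tnfrsf8 (CD30), whose gene lies 20262 bases from Tnfrsf1b, had 10 and 11 counts against 0 and 2 and was not tested.

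Of 9 other TNF ligand genes tested, 4 rose and 2 fell, where 21.3% of all genes tested rose and 17.7% fell. Tnfsf13b (BAFF) rose by 2.81 ± 0.34, Fasl by 1.56 ± 0.22 and Tnfsf10 (TRAIL) by 0.80 ± 0.073 on the log2 scale (edgeR adjusted p of 0.000212, 0.000916 and 4.13e-05). The counts of Tnfsf13b were low, at 87 and 60 in AAV-IL-27 and 12 and 9 in AAV-ctrl. Fasl and its receptor Fas were thus both higher. Tnfsf8 (CD30 ligand) rose by 0.27 ± 0.076 and did not pass with AAV-IL-27 library 1 (adjusted p = 0.071) or control library 1 left out (adjusted p = 0.187). Ltb, lymphotoxin beta, fell by 0.32 ± 0.048, from 276 and 268 to 207 and 214 FPKM. Tnfsf11 (RANK ligand) fell from 20 and 26 counts to 2 and 4. 

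**Figure D4:**
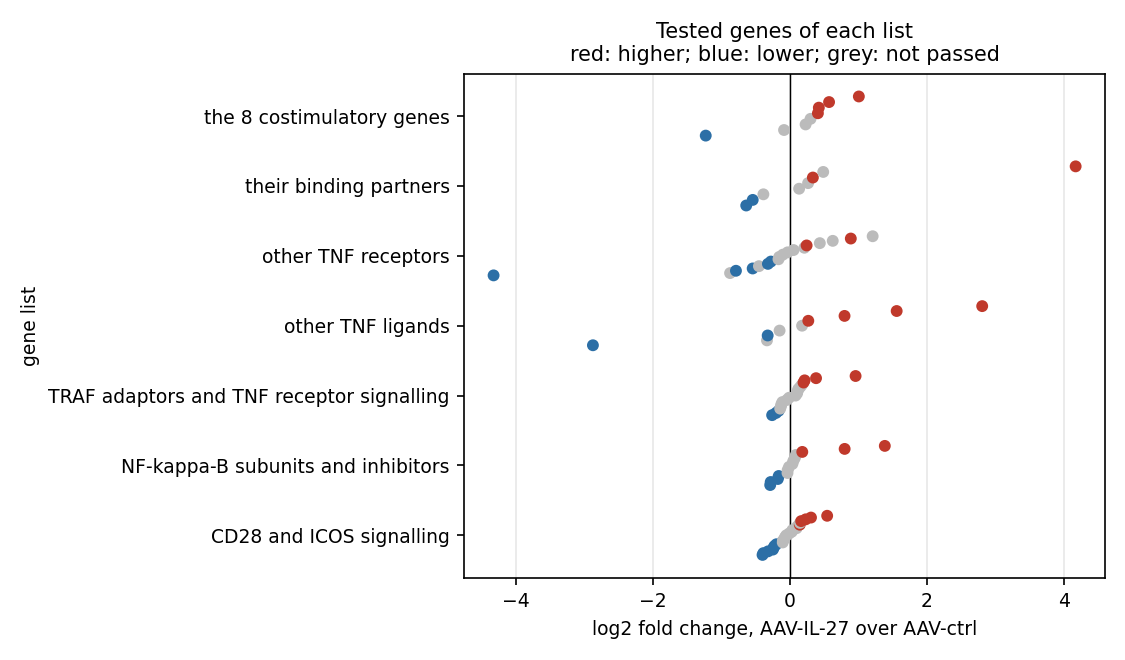
Log2 fold change of each tested gene in the list of the 8 genes and in 6 lists of related genes, red where higher, blue where lower and grey where the test was not passed. Points lie on both sides of 0 in each list. Tnfsf4 at 4.17 is the highest point, and Bcl3 at 1.39 and Tnfaip3 at 0.96 are the highest of the NF-kappa-B and adaptor lists.

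The adaptors carry the signal of the TNF receptors into the cell. Of 19 tested genes of TRAF adaptors and TNF receptor signalling, 4 rose, 3 fell and 12 did not pass (median log2 fold change 0.09). The shares over all genes tested were 21.3% that rose and 17.7% that fell. Traf1 was at 78.3 and 70.2 FPKM against 67.3 and 70.2 (0.15, edgeR adjusted p = 0.0582), and passed with AAV-IL-27 library 3 left out (0.22, adjusted p = 0.0106) or with no filter on low counts (0.0428). Traf2 was at 13.0 and 14.8 against 15.5 and 16.1 (-0.14, adjusted p = 0.191), and passed with AAV-IL-27 library 3 left out (-0.24, adjusted p = 0.0423). Traf3 fell by 0.16 ± 0.054 (adjusted p = 0.0415), but not with AAV-IL-27 library 3 or either control library left out (adjusted p from 0.14 to 0.209). The largest change was in Tnfaip3, which encodes A20, an inhibitor of NF-kappa-B signalling. Tnfaip3 rose by 0.96 ± 0.059 (adjusted p = 3.23e-06), from 31.4 and 31.3 to 62.1 and 55.8 FPKM. Ripk1, a kinase of the TNF receptor complex, rose by 0.38 ± 0.051, and Traf3ip3 fell by 0.26 ± 0.051. Traf3ip3 did not pass with control library 3 left out (adjusted p = 0.0506), and Ripk1 did not when scaled to the T cell identity genes (0.24, adjusted p = 0.107). Of the 19, 2 rose and 1 fell with control library 1 left out, and none fell with control library 3 left out.

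Of 14 genes of NF-kappa-B subunits and inhibitors, 3 rose, 4 fell and 7 did not pass (median log2 fold change 0.01). Among all genes tested 21.3% rose and 17.7% fell. Bcl3, an atypical inhibitor that acts in the nucleus, rose by 1.39 ± 0.06 (edgeR adjusted p = 4.16e-07), from 18.9 and 19.3 to 47.6 and 49.0 FPKM. Nfkbiz, of the same class, rose by 0.80 ± 0.069, from 26.5 and 25.9 to 46.9 and 41.0 FPKM. The subunit genes themselves moved less. Nfkb1 (0.05, adjusted p = 0.413) and Relb (-0.01, adjusted p = 0.929) did not pass. Rel fell by 0.28 ± 0.073 and Nfkb2 by 0.16 ± 0.056, and neither passed with AAV-IL-27 library 1 or control library 3 left out (Rel, adjusted p = 0.0618 and 0.129; Nfkb2, 0.185 and 0.175). Nfkb2 did not pass with control library 1 left out either (adjusted p = 0.237). Of the 14, 2 fell with AAV-IL-27 library 1 or control library 1 left out, and 1 with control library 3 left out.

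Of 23 tested genes of CD28 and ICOS signalling, 5 rose, 7 fell and 11 did not pass (median log2 fold change -0.05). The shares over all genes tested were 21.3% that rose and 17.7% that fell. Akt1, the kinase downstream of phosphoinositide 3-kinase (PI3K), rose by 0.55 ± 0.047 (edgeR adjusted p = 2.80e-05), from 44.0 and 43.8 to 62.2 and 61.5 FPKM. Grap2 (GADS, an adaptor that binds the CD28 tail) fell by 0.38 ± 0.051, from 136 and 133 to 103 and 95.8 FPKM (adjusted p = 0.000377). Pdk1 fell by 0.40 ± 0.055. It encodes a pyruvate dehydrogenase kinase and is no part of this pathway despite its symbol, but the counts given here include it. Pik3r1, a regulatory subunit of PI3K, fell by 0.25 ± 0.049. It did not pass with control library 3 left out (adjusted p = 0.0613). The number that rose was 2 with control library 1 or control library 3 left out, and 3 fell with control library 3 left out.

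Genes within 100 kb of the 8 in RefSeq are set beside all genes tested, of which 21.3% rose and 17.7% fell. Of 22 such genes tested, not counting the 8, 7 rose and 3 fell, and 1 fell with control library 3 left out. Next to Cd27, Tapbpl, which encodes an editor of MHC class I peptides, rose by 0.86 ± 0.054, Ncapd2, a condensin subunit, by 1.22 ± 0.05, and Gapdh by 0.94 ± 0.049, each by more than Cd27, while Vamp1 fell by 0.75 ± 0.075. Mrpl51 rose by 0.41 ± 0.073. Next to Tnfrsf1b, Vps13d fell by 0.33 ± 0.065 (edgeR adjusted p = 0.0039; 0.0608 with control library 3 left out). Next to Tnfrsf4 and Tnfrsf18, Sdf4 (0.04, adjusted p = 0.539), B3galt6, C1qtnf12 and Ube2j2 did not pass and 9430015G10Rik fell by 0.67 ± 0.15 (0.0637 with control library 3 left out). Sdf4 and Tnfrsf4 share 16 bases in RefSeq. GENCODE places the end of Sdf4 at 156013610 and the start of Tnfrsf4 at 156013843, so the genes do not overlap there. Beside Tnfrsf9, Errfi1 rose by 0.60 ± 0.14 (adjusted p of 0.0724 and 0.0811 with either control library left out), and Park7, Per3 and Gm38529 did not pass. Arhgef6, the neighbour of Cd40lg, rose by 0.31 ± 0.048, the opposite direction to Cd40lg. Ctla4, the only neighbour of Icos by this rule, rose by 2.75 ± 0.16, the same direction as Icos. Cd28 has no gene of the table within 100 kb.

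Each of the 8 was compared with genes of a mean log2 CPM (counts scaled to library size) of at least 2, leaving out Gm, Rik and LOC symbols. The genes whose 4 library values were nearest to those of each of the 8, by Euclidean distance of mean-centred log2 CPM, were found by the same rule for all 8. For Icos they were Hnrnpll, Lrrk1 and Dstn (distances of 0.0231 to 0.0311), and for Cd28 they were Psmb3, Mcm8 and Kat2b (0.00804 to 0.0165). For Tnfrsf1b they were Cers6, Ube2t and Tiam1, and for Cd27 Reep4, Hars and Rnf26. Tnfrsf9 had Myof, Cybb and Alpk1 nearest, which shared its higher value in AAV-IL-27 replicate 3. Cybb, a subunit of the phagocyte oxidase, stood at 59.1 and 72.1 FPKM in AAV-IL-27 and at 58.7 and 59.4 FPKM in AAV-ctrl. For Tnfrsf4 they were Far2, Cfap298 and Armc7, for Tnfrsf18 Tmem179b, Pyroxd1 and Zdhhc8, and for Cd40lg Xylt1, C1qb and Pgap1, at larger distances of 0.1905 to 0.206. Cd40lg itself had a mean log2 CPM of 0.31, so no gene at its own level was compared with it. Each distance rests on 4 libraries of 2 groups and is a description only.

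**Figure D5:**
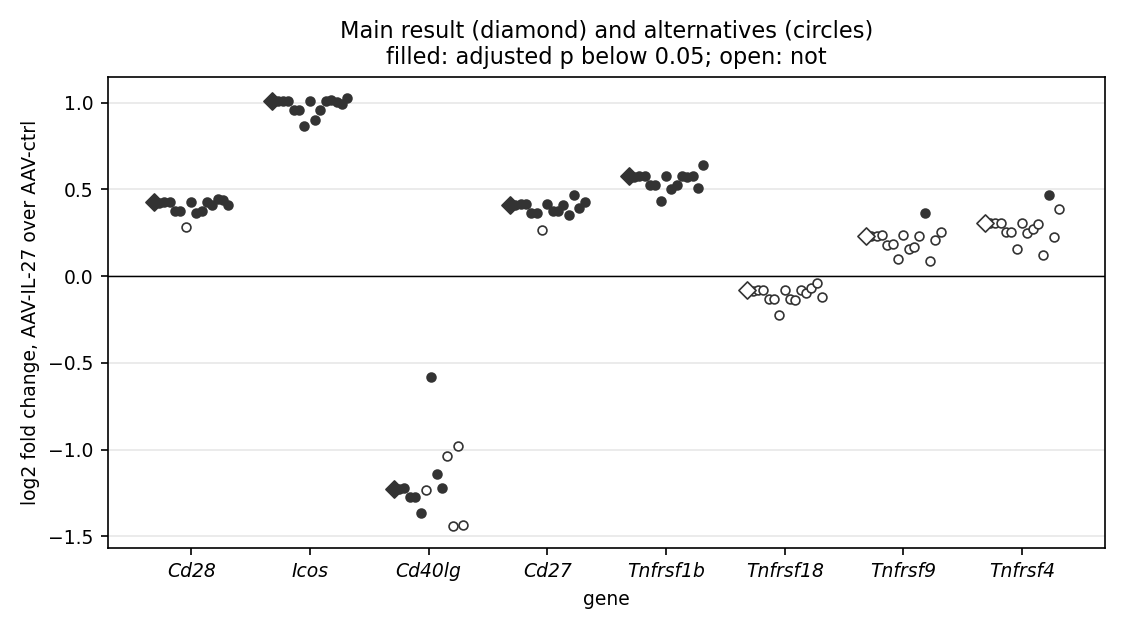
Log2 fold change of each of the 8 genes in the main result (diamond) and in its alternatives (circles), filled where the adjusted p is below 0.05. Icos and Tnfrsf1b stay filled throughout, Cd28 and Cd27 have 1 open circle each, and Tnfrsf4 and Tnfrsf9 have 1 filled circle each.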

How the data were processed

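RNA from splenic T cells of 4 mice, 2 per group, was sequenced on DNA nanoballs, per the labels' protocols, which name both polyA RNA and removal of ribosomal RNA. Expected counts were deposited by the authors for each gene and library, with a second value per gene whose unit the header does not name. It was taken as FPKM from its values, and the deposited FPKM are used for description. Tools named in the submitters' processing notes, without their roles, are RSEM 1.2.12, DESeq2 1.4.5, HISAT2 2.0.4 and Bowtie2 2.2.5, with the build GRCm38.p6. Use of strand in counting is not stated in these sources.

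Expected counts were rounded, filtered with filterByExpr (12887 of 17039 genes), scaled by TMM and tested with edgeR 4.0.16 in R 4.3.3 (robust quasi-likelihood, two-sided, Benjamini-Hochberg over all genes tested, threshold 0.05). SE is the log2 fold change divided by the square root of F. Alternatives were other filters and scalings, DESeq2 1.42.0, limma 3.58.1 on log2(FPKM + 1) and log2(FPKM + 0.1), a replicate block and leaving out each library, 14 in all. The fit was tested on simulated data. The 8 genes, the lists and the rule for named genes were chosen with earlier results of these data known. The rule took the 8 genes, their partners, a set of named receptors, adaptors and markers, the 3 largest called changes of each list whose mean log2 CPM reached 1, genes within 100 kb, and the 3 nearest patterns per gene. Tnfrsf10b, Tnfrsf22, Tnfrsf19, Tnfsf8, Ltb, Tnfsf11, Pik3r1, Ikzf2, Sh2d1a, Bcl6, Eomes, Xcr1, Itgax, Flt3, Csf1r and Siglech were named after their values were seen. Coordinates and promoters come from RefSeq (GRCm38.p6), strands and exons from GENCODE M21 (GRCm38).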

Additional observations from a re-analysis of the deposited data

How the results depend on the processing

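None of the 8 genes changed direction in any alternative that tested it, and 4 of them passed as higher in the main result. Scaled to the T cell identity genes, 2 passed as higher. The 1 lower gene, Cd40lg, became 0 under a filter of at least 10 counts in every library (where it was not tested), by DESeq2, and without any single library. Leaving out 1 library gave 4 to 5 higher genes and 0 lower genes. Over all genes tested, DESeq2 called 3243 against 5023, and leaving out 1 library gave 2635 to 4886, the lowest with control replicate 1 left out, and 2743 with control replicate 3 left out. The calls split into 2745 higher and 2278 lower in the main result, 2362 and 2979 with upper-quartile factors, 2363 and 2975 with library size alone, and 1438 and 2881 scaled to the T cell identity genes.

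Replicate numbers are shared by the groups, but the labels do not say that they mark a litter or day, and deviations of same-numbered libraries correlated at 0.0152. With the replicate block 4971 genes were called, and the 8 genes gave 4 higher and 1 lower. Cd40lg had adjusted p = 0.0485 in that fit. The block ended the calls of Nfkb2 (adjusted p = 0.0511), Foxp3 (0.0531), Fcer2a (0.0699) and Cd79b (0.1305), and Tnfrsf1a passed (0.0445). Among the related lists, counts moved by over 1.5 times in other alternatives too: partners higher (1 against 2 in 10 alternatives), other TNF receptors higher (5 with no filter, 1 by DESeq2) and lower (8 by limma), other TNF ligands lower (1 with at least 10 counts in every library), TRAF signalling higher (1 scaled to the T cell genes, 2 by limma), NF-kappa-B lower (1 by DESeq2), CD28 signalling higher (3 with upper-quartile factors, library size alone, DESeq2 or limma, and 1 scaled to the T cell genes), T cell identity higher (5 with upper-quartile factors, library size alone or limma, and 1 scaled to itself), CD4 and regulatory T cell genes lower (2 by DESeq2) and B cell genes lower (1 with the replicate block, 5 to 8 by DESeq2, by limma or scaled to the T cell genes, against 3). Of the follicular helper T cell genes, Bcl6 lost its call by DESeq2, and Cxcr5 and Pou2af1 passed as lower when scaled to the T cell genes. The cause of these shifts was not tested. Cd40lg, at 9 to 29 counts per library, is limited by depth.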
